A study of Mus musculus with 2 samples.

Results

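Chromosome 8 carried 278 of the 4117 peaks of Flag-USP21 in mouse embryonic stem cells (mESCs), that is 6.75% of the list. These peaks are described here by position, spacing, width and score. The peaks were selected on their chromosome name in the deposited list, and the chromosome was chosen by its high count of called peaks, so both rest on measured values. The other 18 autosomes, with 3661 peaks, served for comparison. The study examined the function of the deubiquitinase USP21 in E14 cells, a line of mESCs kept without feeder cells in serum medium with leukaemia inhibitory factor. It comprised 2 libraries: chromatin immunoprecipitation (ChIP) with an antibody against the Flag tag gave the one, and input chromatin of the same line, without antibody, gave the other. Both are known here by their titles as Flag-USP21 and Input-USP21. A peak list of the Flag library was analysed. The input library itself was not analysed here, and the control used in peak calling is not given in the list. The methods describe E14 lines with Flag-USP21 placed at the Rosa26 locus, but the labels do not say whether this library came from such a line, from 1 clone or from several. With 1 library there were no replicates, so no test between samples was possible, and the intervals below cover counting error over peaks only.

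USP21 belongs to the ubiquitin-specific proteases, which cleave ubiquitin from proteins. Among its known substrates is histone H2A monoubiquitinated at a lysine near its C terminus, a mark that polycomb repressive complexes place on silenced genes and that is prominent at developmental genes in mESCs. A ChIP peak is an interval where immunoprecipitated DNA fragments, counted as sequence tags, lie more densely than a background. Chromosome 8 is one of the chromosomes that cultured mESCs are known to gain, and the number of copies in these cells was not analysed here.

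The labels name mm9 as the genome build, and all positions below are given in it, counted from 1. Of the chromosome 8 peaks, 4 ended beyond the GRCm38 (mm10) length of the chromosome, 129401213 bp, so the list was not in GRCm38 coordinates. The genes and sequences at these positions were therefore not analysed here. The score of a peak is the value written by the peak caller that the authors ran. As laid out by MACS14, a p-value of the tags in the peak against background is turned into its negative log10 and multiplied by 10. A score of 40, the lowest in the list, is thus a p-value of 0.0001, and 100 is a p-value of 1e-10.

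The peaks reached from one end of the sequenced chromosome to the other. The first lay at 3363818 to 3363961 (144 bp, score 40.97) and the last at 131661309 to 131661457 (149 bp, score 44.04). Over the 128 Mb between them, chromosome 8 had 2.17 peaks per Mb, against 1.61 per Mb on the other autosomes, a ratio of 1.34 (95% interval 1.18 to 1.52). This was the third highest density of the 19 autosomes, after chromosome 14 (3.51 per Mb) and chromosome 1 (2.64 per Mb) and next to chromosomes 6 (2.08 per Mb) and 11 (2.00 per Mb). The other autosomes ranged from 0.995 to 3.51 per Mb with a median of 1.33 per Mb. The chromosome was chosen with this number known, so the density is a description and was not tested.

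The excess lay in the weak peaks. Chromosome 8 had 163 peaks with a score below 50, or 1.27 per Mb against 0.743 per Mb elsewhere, a ratio of 1.71 (95% interval 1.45 to 2.01). For the 91 peaks with scores of 50 to 100 the ratio was 1.09 (95% interval 0.873 to 1.35). The 24 peaks that scored 100 or more gave 0.187 per Mb against 0.220 per Mb, a ratio of 0.851 (95% interval 0.540 to 1.28). Chromosome 8 thus ranked 3, 7 and 14 among the 19 autosomes in the 3 score classes, from weak to strong. For the strong class, with 24 peaks, the counting interval included 1. The chromosome was chosen for its high count, most of it weak peaks, so the ratio of the weak class follows in part from that choice. The ratios are a description over peaks of 1 library, and differences between the classes were not tested.

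**Figure D1:**
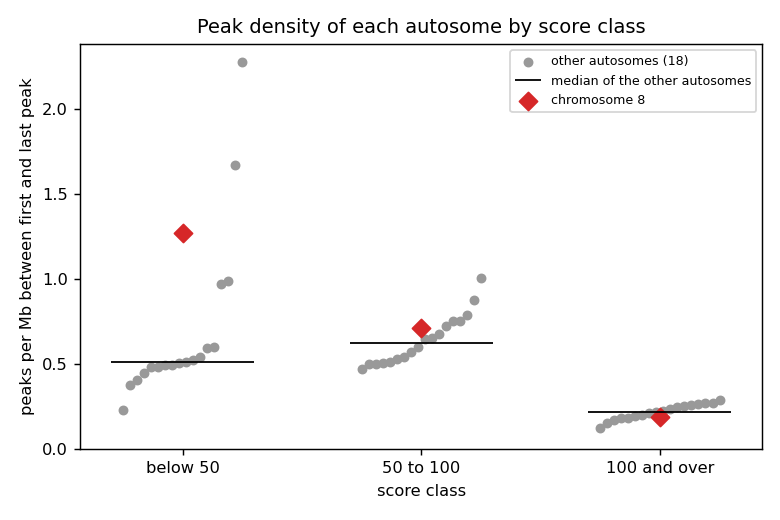
Peaks per Mb of span for each of the 19 autosomes in 3 classes of the authors' score, with chromosome 8 as a diamond, the other autosomes as grey points ordered by value and their median as a line. Chromosome 8 stands at 1.27 per Mb in the class below 50, where only chromosomes 1 and 14 are higher, and at 0.187 per Mb, below the median of 0.218, in the class of 100 and over.

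The whole distribution of the score on chromosome 8 was accordingly low. The median score was 47.21 (95% interval 46.14 to 49.33), against 51.50 (50.92 to 52.26) on the other autosomes, with lower medians on chromosomes 14 (46.15) and 1 (47.00) only. The quartiles were 43.44 and 57.57, whereas those of the other autosomes were 44.65 and 74.15. Scores below 50 made up 58.6% of the chromosome 8 peaks (exact 95% interval 52.6 to 64.5%) and 46.1% elsewhere (44.5 to 47.7%). Scores of at least 100 made up 8.63% (5.61 to 12.6%) and 13.6% (12.5 to 14.8%), respectively. The highest score on chromosome 8 was 525.01, below the median of 633 over the highest scores of the other autosomes.

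The peaks were narrow, as in the list as a whole, and their widths were tightly grouped. The median width was 144.5 bp (95% interval 140 to 147 bp) against 145 bp (144 to 146 bp) elsewhere, a difference within the counting intervals. The quartiles were closer together than on the other autosomes, at 126 and 155 bp against 123 and 160 bp. Widths of 140 to 160 bp were found for 109 peaks (39.2%, exact 95% interval 33.4 to 45.2%), against 33.2% (31.6 to 34.7%) elsewhere. This share was the highest of the 19 autosomes, next to 38.8% on chromosome 2 and 38.4% on chromosome 1. The intervals of chromosome 8 and the other autosomes overlapped. Both tails were small. Peaks under 100 bp numbered 25 (8.99%, 5.90 to 13.0%, against 12.9% elsewhere, which lay within that interval). Chromosomes 14 (5.84%) and 1 (7.25%) had lower shares of such peaks. Peaks over 200 bp numbered 12 (4.32%, 2.25 to 7.42%, against 8.88% elsewhere, with 7.98 to 9.85%). The share over 200 bp was the lowest of the 19 autosomes, of which the next had 5.33%.

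The 10 highest-scoring peaks lay between 39 and 99 Mb along the chromosome, in its inner part. The highest, at 55392110 to 55392251, was 142 bp wide and had a score of 525.01, which was rank 22 in the list of 4117 peaks. Next came a peak of 155 bp at 67733510 to 67733664 with a score of 399.58 (rank 47) and a peak of 177 bp at 94708784 to 94708960 with a score of 335.01 (rank 61). These 3 peaks were close to the median width of the chromosome or above it. The following peaks were of 111 bp at 56064501 to 56064611 (score 311.12), 104 bp at 60806155 to 60806258 (score 288.55) and 148 bp at 89083715 to 89083862 (score 272.24). Scores of 235.57 (98769391 to 98769492, 102 bp) and 218.47 (39238543 to 39238660, 118 bp) came after them. The last of the 10 were 78 bp (77501676 to 77501753, score 210.84) and 94 bp wide (69601860 to 69601953, score 201.94). The next score below these 10 was 196.9.

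The 3 widest peaks were not among the strong ones. The widest, with 395 bp, was at 73646387 to 73646781 and had a score of 45.17. It was followed by 313 bp at 26054031 to 26054343, where the score was 92.68, and by 291 bp at 74366208 to 74366498, where it was 44.87. The widest peaks of the other autosomes ranged from 271 bp on chromosome 3 to 1268 bp on chromosome 1, with a median of 444.5 bp. In this measure chromosome 8 ranked 12 of 19 from the highest.

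The 24 strong peaks, those scoring 100 or more, were spread out. They lay from 7601436 to 124103209, with a median distance of 3.21 Mb between neighbours and a longest interval without such a peak of 23.1 Mb. The nearest pair among them was 0.127 Mb apart. Their widths ranged from 64 to 225 bp with a median of 107.5 bp (95% interval 83 to 148 bp), against 140 bp (129 to 148 bp) for the 499 strong peaks of the other autosomes. Of the 24, 10 were under 100 bp (41.7%), whereas 172 of 499 were elsewhere (34.5%). The strong peaks of chromosome 8 were narrower in the median than the weak ones, whose median was 146 bp (145 to 150 bp). Of the 163 weak peaks, 0 were under 100 bp. At a given number of tags the score falls with width, so part of this order lies in the score itself. The interval of these 24 peaks overlapped that of the weak peaks and that of the strong peaks elsewhere. The median width of the strong peaks was lower on 2 other autosomes.

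**Figure D2:**
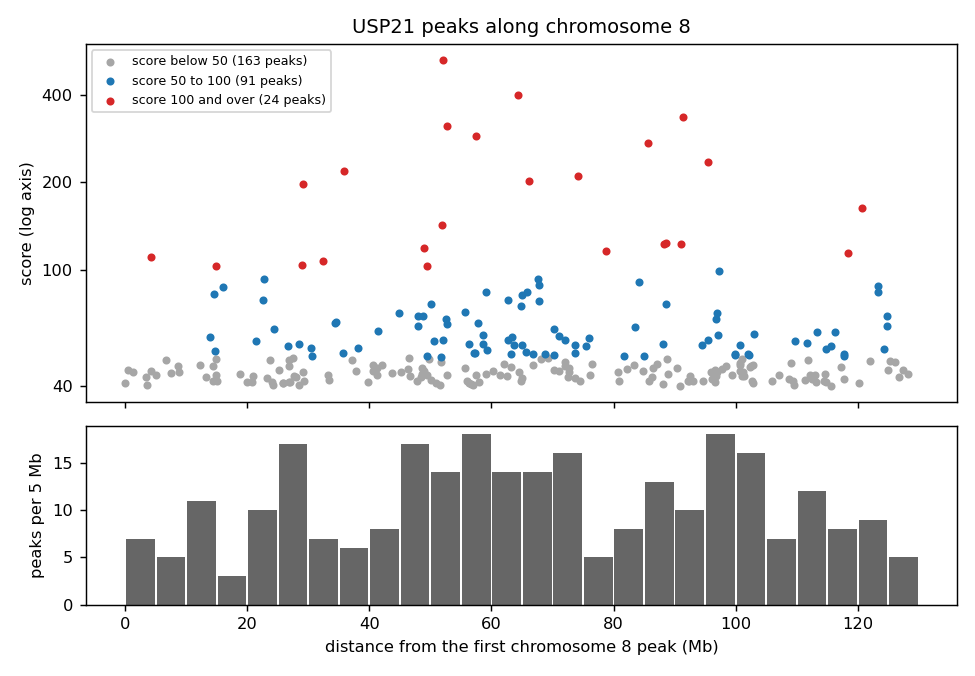
Score of each of the 278 chromosome 8 peaks (log axis) against the distance in Mb from the first peak, coloured by score class, and below it the number of peaks in each 5 Mb. Weak peaks run along the whole chromosome, while the 10 highest scores (201.94 to 525.01) lie in its inner part.

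Along the chromosome, peaks were spread over all bins of 10 Mb, in differing numbers. Each of the 12 bins of 10 Mb that lay wholly between the first and the last peak held 14 to 34 peaks, with a median of 22. The median of the 208 such bins of the other autosomes was 13, with a range of 4 to 92. All 12 bins of chromosome 8 were above that median, as were 102 of the 208 bins elsewhere, and 7 of the 12 were above the upper quartile of 18. The lowest bins, with 14 to 16 peaks, stood only just above the median. Chromosome 8 was chosen for its high count, so bins above the median follow in part from the choice. The stretch before 10 Mb was not among these bins. Of 127 bins of 1 Mb, 19 held no peak (15.0%), against 9.38 to 37.1% on the other autosomes with a median of 31.0%. A low share of empty bins follows in part from the high density. Chromosomes 11 (14.5%) and 6 (16.1%), next in density, were close, and chromosomes 1 and 14 had 9.38% and 24.0%. On chromosome 8, no more than 2 empty bins stood next to each other, which equalled the shortest such run on any autosome. The counts per 1 Mb were moderately uneven, with a variance of 1.41 times the mean, and 6 other autosomes were more uneven. The interval of the density ratio takes peaks as independent, so with uneven counts it can be too narrow.

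The fullest bins of 10 Mb were those at 50 to 60 Mb (34 peaks, 5 with a score of at least 100) and 60 to 70 Mb (32 peaks, 3 strong). The emptiest was at 80 to 90 Mb (14 peaks, 2 strong), and 15 peaks each lay at 20 to 30 and 40 to 50 Mb, with 0 strong peaks in both. When the span was cut into 3 equal parts, 72 peaks (25.9%, exact 95% interval 20.9 to 31.5%) fell into the part nearest the first peak, 109 (39.2%, 33.4 to 45.2%) into the middle and 97 (34.9%, 29.3 to 40.8%) into the last. The other autosomes together had 28.9%, 31.4% and 39.8% in these parts. Pooled, they were densest towards the end of the numbering, whereas the highest count of chromosome 8 was in its middle. The intervals of the middle and last parts of chromosome 8 overlapped. Single autosomes were not compared in this measure, so a trait of chromosome 8 was not shown. The weak share was 68.1% (56.0 to 78.6%) in the first part, 47.7% (38.1 to 57.5%) in the middle and 63.9% (53.5 to 73.4%) in the last, with overlapping intervals between neighbouring parts, and the strong peaks numbered 6, 10 and 8.

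The densest window of 5 Mb began at 51.2 Mb and ran from the peak at 51219082 to the one that ended at 56088528. It held 27 peaks, or 5.40 per Mb, which was 2.65 times the density of the rest of the chromosome (95% interval 1.71 to 3.95). A densest window is denser than the rest by construction, and the other autosomes gave folds of 1.76 to 4.85 with a median of 2.503, so chromosome 8 ranked 8 of 19. The window was not made of weak peaks alone, since 12 of its 27 peaks had a score below 50 and 5 had a score of at least 100, among them the highest of the chromosome. With the window left out of chromosome 8 only, its density was 1.26 times that of the other autosomes (95% interval 1.11 to 1.43). With the window it was 1.34 times. The other autosomes kept their own densest windows, and chromosome 8 was chosen for its high count. A ratio above 1 follows in part from that choice, so no conclusion on the window is drawn from it.

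The 3 longest intervals without a peak were 3.41, 2.90 and 2.83 Mb. The longest ran from the peak at 12201702 to 12201816 (score 44.6) to that at 15610538 to 15610672 (score 47.03). The next lay just beyond the densest window, between the peaks at 56088378 to 56088528 (score 43.64) and 58989127 to 58989260 (score 45.99). The last of the 3 was bordered by the peaks at 106412281 to 106412472 (score 60.15) and 109245754 to 109245908 (score 41.61). All 6 bordering peaks scored below 100. The longest interval was shorter than the median of 4.47 Mb over the longest intervals of the other autosomes, which ranged from 3.11 to 8.60 Mb. Shorter intervals follow in part from the higher density. Chromosomes 11 (3.24 Mb) and 6 (3.54 Mb), next in density, were close, and the denser chromosomes 1 and 14 had 4.10 and 4.95 Mb.

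Neighbouring midpoints on chromosome 8 were a median of 271 kb apart (95% interval 208 to 338 kb), against 352 kb (334 to 378 kb) on the other autosomes. The shorter spacing follows from the higher density, so the shape was compared by dividing by the mean. The median was 0.585 of the mean spacing of 463 kb, close to 0.566 of 623 kb for the other autosomes together, and the coefficient of variation was 1.15, with 0.884 to 2.11 on single autosomes. In both measures, chromosome 8 lay within the range of the others. Chromosome 14 had the most uneven spacing (coefficient of variation 2.11), whereas chromosomes 1 and 11, which also had high densities, gave 1.21 and 1.03.

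**Figure D3:**
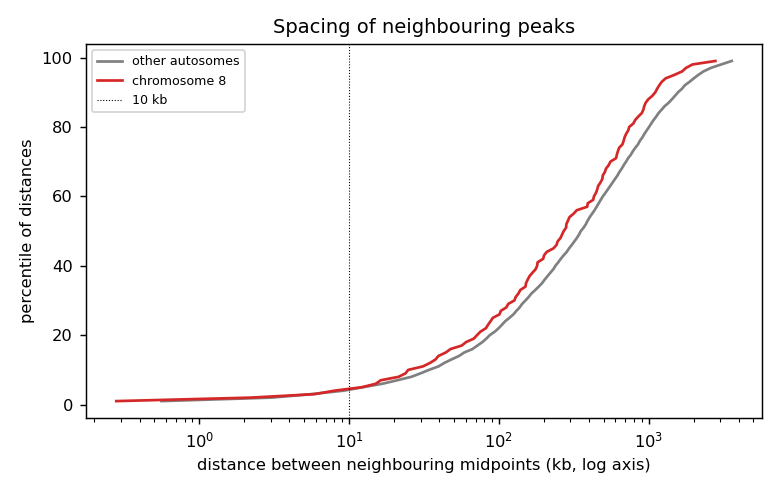
Percentiles of the distance in kb between neighbouring peak midpoints (log axis) on chromosome 8 and on the other autosomes together, with 10 kb marked by a dotted line. The chromosome 8 distances are the shorter over most of the range, with medians of 271 and 352 kb.

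Close neighbours were few and came in pairs. A midpoint within 10 kb of another was found for 26 peaks (9.35%, exact 95% interval 6.20 to 13.4%), against 8.47% (7.59 to 9.42%) on the other autosomes, a difference within the counting interval. These 26 peaks formed 13 pairs, and no group of 3 or more peaks was present. The other 252 peaks stood alone at this distance. The closest pair, at 98769269 to 98769372 (score 57.52) and 98769391 to 98769492 (score 235.57), had midpoints 121 bp apart and edges separated by 18 bp. It was the only pair that included a peak with a score of at least 100. The next pairs were at 68415058 to 68415178 and 68415245 to 68415356 (scores 55.28 and 82.27), and at 61919968 to 61920105 and 61920137 to 61920310 (scores 59.71 and 55.45). Their edges were 66 and 31 bp apart, so adjacent intervals of this kind may be counted as 1 or as 2 sites.

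Paired and single peaks had similar scores. The median score was 49.39 (95% interval 45.28 to 57.55) for the 26 paired peaks and 47.04 (45.71 to 49.33) for the 252 single ones. The median widths were 139.5 bp (125 to 151 bp) and 145 bp (141 to 148 bp). In both measures the intervals overlapped.

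The list gives no tag counts, so the number of tags behind the chromosome 8 peaks was read from the scores. Scores that lie on a Poisson tail, the chance of more than a given number of tags at a given mean, reveal that number. Over the whole list, a single rate of 8.13 tags per kb gave tails that met the scores of 2212 peaks (53.7%) to within 0.015. This rate, called the background rate below, was inferred from the scores, as the list does not state how they were computed. For each tail it was multiplied by the width of the peak, and by 104 bp where the peak was narrower. On chromosome 8, 114 of the 278 peaks met such a tail (41.01%, exact 95% interval 35.2 to 47.0%), against 54.9% (53.2 to 56.5%) on the other autosomes. Lower shares were found on chromosomes 14 (19.4%) and 11 (39.4%), and the next higher on chromosomes 1 (43.9%) and 6 (47.2%), while 14 other autosomes had 59.3% or more.

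Most of these matched peaks rested on small numbers of tags. A tail beyond 7 tags was matched by 73 of the 114 peaks (64.0%, exact 95% interval 54.5 to 72.8%), against 40.9% (38.8 to 43.1%) of 2009 peaks on the other autosomes. This share of the matched peaks was the highest of the 19 autosomes, next to 59.4% on chromosome 1. Over all peaks, matched or not, the peaks with a tail beyond 7 tags made up 26.3% on chromosome 8 (21.2 to 31.8%) and 22.5% (21.1 to 23.8%) elsewhere, intervals that overlapped, and 4 autosomes had higher shares. A tail beyond 8 tags was matched by 15 peaks, and a tail beyond 9 or more by 24 peaks (21.1%, against 42.3% elsewhere). Chromosome 1 was close in this, with 50 of its 224 matched peaks, whereas chromosomes 11 and 14 had 31 of 93 and 40 of 83. Only 4 peaks of chromosome 8 matched a tail beyond 20 or more, of which the highest number, 36 tags, belonged to the peak at 67733510 to 67733664 (score 399.58). Whether a tail beyond 7 tags means a peak of 7 or of 8 tags is not stated in the list.

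**Figure D4:**
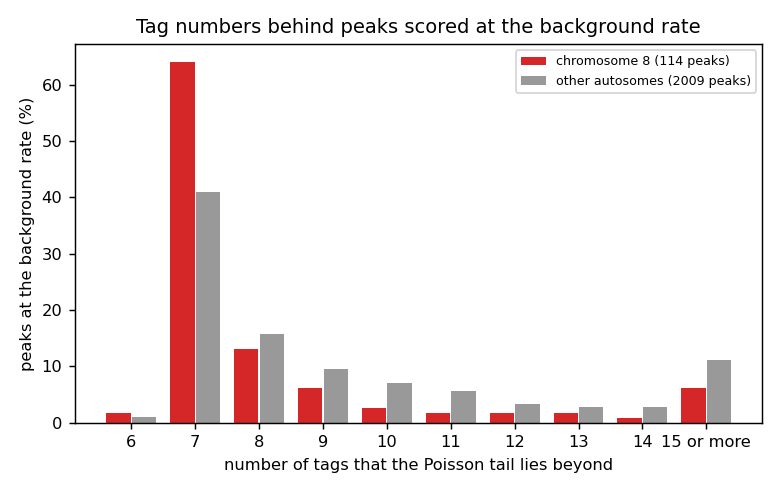
Share in percent of the peaks scored at the background rate by the number of tags that their Poisson tail lies beyond, for chromosome 8 (114 peaks) and the other autosomes (2009 peaks). At 7 tags the bars stand at 64.0% and 40.9%, and in each pair of bars from 8 to 14 and at 15 or more the bar of chromosome 8 is the lower.

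The 73 peaks with a tail beyond 7 tags were 97 to 161 bp wide with a median of 145 bp, and their scores ran from 55.14 down to 41.72. At this tag number and rate the score depends on the width alone: it is 55.14 at 104 bp and 41.91 at 160 bp. The 278 peaks carried 201 different scores. The commonest was 41.55, which 10 peaks of 121 to 168 bp shared, all of them off the background rate. It was followed by 43.05 and 43.64 with 6 peaks each, all at the background rate, at 154 and 151 bp, respectively.

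The remaining 164 peaks of chromosome 8 did not match a tail at the background rate. To such peaks of all autosomes, a ladder of rates was fitted, with steps of 0.847 tags per kb, starting at 8.47 tags per kb. The step was the distance between the 2 rates that matched most of these peaks, adjusted to match as many as possible. The number of peaks on the ladder is therefore raised by construction. On chromosome 8, 64 of the 164 peaks (39.0%, exact 95% interval 31.5 to 46.9%) lay on a rung of this ladder up to 2 times the background rate, as did 39.7% (37.3 to 42.1%) of 1652 such peaks elsewhere. The lowest rung held 23 peaks, the next, 9.32 tags per kb, held 15, and the numbers at 10.17 and 11.02 tags per kb were 7 and 9. The largest groups thus matched a mean 1.04 and 1.15 times the background. A single rate taken at intervals over the same range matched a median of 6 of the 1816 autosomal peaks. These single rates were not fitted, so they are no like comparison for the ladder. Some scores can be read at more than 1 rate, and the means of the other 100 chromosome 8 peaks were not recovered.

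The share at the background rate differed most from the other autosomes in the upper score classes. On chromosome 8 it was 39.9% (exact 95% interval 32.3 to 47.8%) for scores below 50, 44.0% (33.6 to 54.8%) in the class of 50 to 100 and 37.5% (18.8 to 59.4%) in that of 100 and over. On the other autosomes it was 45.3% (42.9 to 47.7%), 62.5% (59.98 to 64.99%) and 64.7% (60.4 to 68.9%). In the upper 2 classes the intervals did not overlap, whereas in the lowest class they did. The classes were compared with the pooled autosomes only, so a trait of chromosome 8 alone was not shown. Over all scores, chromosomes 14 (19.4%) and 11 (39.4%) had lower shares. Along the chromosome the share was 47.2% (35.3 to 59.3%), 42.2% (32.8 to 52.0%) and 35.1% (25.6 to 45.4%) in the 3 parts of the span, within each other's intervals, and the other autosomes gave 63.2%, 59.4% and 45.3%. In the densest 5 Mb window it was 55.6% (15 of 27 peaks).

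Across the 278 peaks, score and width were inversely related, with Spearman's rho of −0.31 and Pearson's r of −0.12. The points share 1 library, and part of the relation lies in the score itself, which falls with width at a given number of tags. For the 3661 peaks of the other autosomes, rho was −0.14 and r was 0.17. The rho of chromosome 8 was the lowest of the 19 autosomes, which otherwise ranged from −0.29 on chromosome 13 to 0.04 on chromosome 17. By r, chromosomes 11 (−0.25) and 3 (−0.14) were lower. For the 24 strong peaks of chromosome 8 the sign was opposite, with a rho of 0.27. With so few peaks this value is imprecise, and a reversal was not tested.

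**Figure D5:**
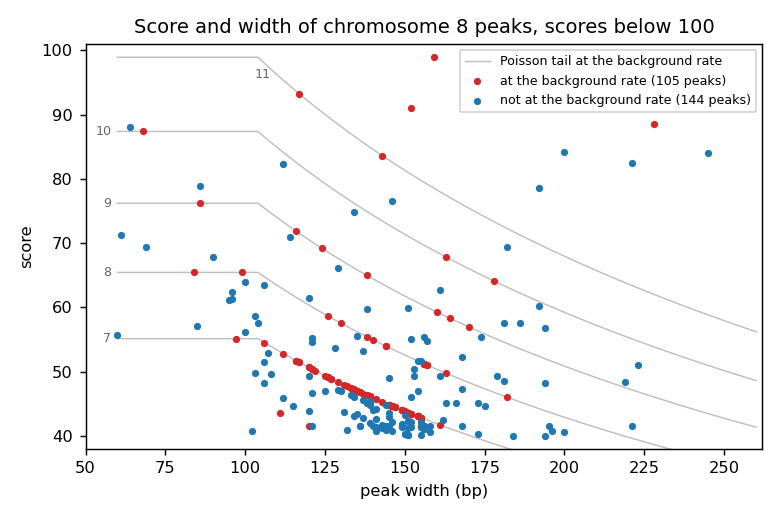
Score against width in bp for the 249 chromosome 8 peaks with a score below 100 and a width of up to 260 bp, with peaks at the background rate in red (105), the unmatched ones in blue (144) and Poisson tails at that rate as grey lines labelled with the number of tags. Red points crowd on the line for 7 tags between 41.72 and 55.14, and many blue points lie just under it.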

How the data were processed

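The data were 1 Flag ChIP library and 1 input library of E14 cells, grouped by sample title, and a peak list of the former. Per the labels, CASAVA 1.4, Bowtie 0.12.7 and build mm9 were used. The methods name uniquely mapped reads, mm10 and a later MACS release in broad mode with an IgG control, whereas the deposited list carries MACS14 identifiers, so which run and control gave it is not stated. The deposited score was used as written by the authors' peak caller. The list gives no depth.

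Members and measures were chosen with earlier results of these data known. Peaks named are the 10 highest and 3 widest on chromosome 8, the first and last, the 3 closest pairs, and those bordering the 3 longest intervals. Density was peaks per Mb between first and last midpoint. Its ratio has an exact conditional binomial 95% interval, medians have order-statistic intervals, and shares have Clopper-Pearson intervals. The Poisson rate and smallest window were fitted on the whole list, and this fit was tested on simulated data. The step of the ladder was fitted on the autosomal peaks off that rate and was not tested in this way. Chromosomes X and Y were left out. The alternatives given at the end concern score and width limits, lengths, window, distance and tolerance. An mm9 genome was not used here, so the planned sequence and gene analyses were left out. Values were computed with pandas 2.3.3, numpy 2.4.6 and scipy 1.17.1 under Python 3.11.15 and drawn with matplotlib 3.10.9.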

Additional observations from a re-analysis of the deposited data

How the results depend on the processing

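The score limit moved the density ratio of chromosome 8 most, which was 1.34 without one. Scores from 50 up gave 1.03, those from the list's median up gave 1.01, and those from 100 up gave 0.851. It was 1.71 for scores below 50, and 1.68 without chromosomes 1, 6, 11 and 14 in the comparison. With GRCm38 lengths, 1 peak per cluster, chromosome X added or the densest 5 Mb of chromosome 8 left out, it stayed within its interval (1.26 to 1.38). By construction, the share of close peaks changed with the distance, to 3.60% within 1 kb, 28.4% within 50 kb and 43.9% within 100 kb. Among the strong peaks it was 0% (0 of 24, exact 95% interval up to 14.2%). Fewer peaks also gave longer median spacings, of 660 kb for scores from 50 up and 3211 kb for scores from 100 up. The median width was then 129 and 107.5 bp. Spearman's rho between score and width was 0.27 for the 24 peaks with scores from 100 up, an imprecise value, and −0.27 below 100. The score falls with width at a given number of tags, so a score limit also acts on width. The causes of these changes in width and rho were otherwise not tested. The median score, the share below 50, the share at the background rate and the fold of the densest window stayed within their intervals under every alternative run for them. The alternatives with scores below 50 or 100, without the densest window and without the widest peaks were chosen after seeing the data. No paired analysis was possible because there was 1 library per group and 1 peak list. Tag numbers were recovered for part of the peaks only, which limits statements on depth.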
